A study of Mus musculus with 8 samples.

Results

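The 10 collagen genes described here encode 4 fibrillar chains (Col1a1, Col1a2, Col3a1, Col5a1), 2 type IV chains (Col4a1, Col4a2), 3 type VI chains (Col6a1, Col6a2, Col6a3) and the type XV chain Col15a1. They were chosen by name from the 19857 genes of the deposited count table, which holds 29 further collagen chains. RNA came from the tongues of 12-month-old female mice. One group was heterozygous for the A17 allele of Pabpn1 (written PABPN1A17/+ in the labels, A17/+ here), and the other was wild type (WT), with 4 mice per genotype. The gene's product coats the poly(A) tails of messenger RNA in the nucleus, and longer alanine stretches in it cause oculopharyngeal muscular dystrophy, which weakens the muscles of eyelid and throat late in life. The strain is not given in the sources used here, the libraries are bulk RNA from sections of the middle of the tongue, and the groups differ in no labelled agent or treatment.

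Collagens are extracellular proteins whose chains wind around each other into a stiff helix. Types I, III and V assemble into the fibrils of connective tissue, where type I carries tension, type III gives more pliable networks and type V lies within the fibril and helps to set its thickness. Type IV forms the mesh of the basement membrane around muscle fibres, vessels and epithelia, type VI forms beaded filaments that tie this mesh to the surrounding matrix, and type XV sits at the outer face of the basement membrane. In muscle, inherited defects of type VI chains cause a muscular dystrophy of their own, and a build-up of fibrillar collagen is a known feature of dystrophic muscle.

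Libraries held 395061 to 485326 counts in A17/+ and 205696 to 465014 counts in WT, and each count is a tagged molecule. The 10 collagen genes together had 234 to 372 counts per A17/+ library and 152 to 230 per WT library. A single count was worth 2.23 to 2.85 CPM (counts scaled to a common library size by the TMM method) in A17/+ and 2.23 to 5.42 CPM in WT. Counting error therefore adds to the spread of each chain. Transcripts shorter than 1000 nt took 5.82% to 7.95% of the counts in A17/+ and 3.95% to 6.03% in WT, and mitochondrial transcripts took 7.24% to 11.0% in A17/+ and 4.17% to 6.43% in WT. On the first principal component WT 1 (7.21) and A17/+ 1 (−4.27) lay between the other libraries, at −30.7 to −27.0 for A17/+ and at 19.8 to 35.8 for WT, so values without both are given where they change the call of a chain or a named gene. Of 12 tested skeletal muscle markers 6 were higher and 0 lower, against 6.34% higher and 2.61% lower of all tested genes. The markers included Acta1 (log2 fold change 1.68), Ckm (1.09) and Tnnt3 (1.18, with an adjusted p of 0.156 when the length trend was removed). They summed to 112211 to 134183 CPM in A17/+ and to 86664 to 116749 CPM in WT, and tongue epithelium markers summed to 11885 to 21795 CPM in A17/+ and to 16668 to 18972 CPM in WT, with no marker of either list at 0. Pabpn1 itself had 9, 9, 5 and 11 counts in A17/+ 1 to 4 and 15, 4, 6 and 6 counts in WT 1 to 4, and tags at the 3′ end do not check the genotype.

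Col3a1, the chain of type III collagen, was the chain that rose in A17/+ tongue, 2.49-fold. Of the 10 chains 9 passed the filter on low counts, and of these 1 was higher and 0 were lower in A17/+ by the quasi-likelihood test of edgeR with adjustment over all 5066 genes tested. For comparison, 6.34% of all tested genes were higher and 2.61% lower, 8.94% in either direction. By DESeq2 the count was also 1 higher and 0 lower. By edgeR, 2 of the 9 chains, Col3a1 and Col5a1, had an unadjusted p under 0.05. The same held for 1273 of the 5066 tested genes. The median log2 fold change of the 9 chains was 0.34, against 0.01 over all tested genes. The direction of single chains was mixed, with 7 of the 9 fold changes above 0. In bulk tissue, fewer cells of a type and less RNA per cell cannot be told apart, and this holds for every level given here.

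The chains have long transcripts, from 4100 nt (Col6a1) to 10106 nt (Col6a3). Among the 2758 tested genes with a transcript of at least 4000 nt, 1.6% were higher and 3.08% lower in A17/+, and their median log2 fold change was −0.07. The transcript of Col3a1 has 5564 nt.

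**Figure D1:**
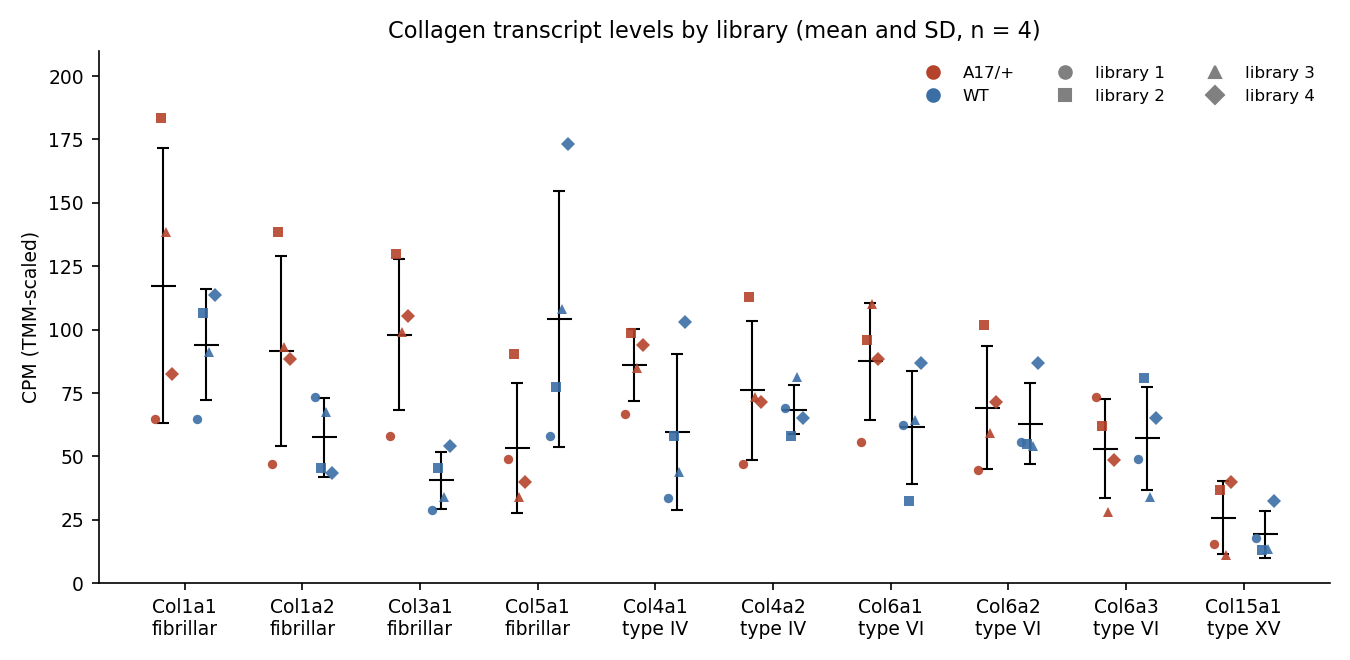
TMM-scaled CPM of the 10 collagen genes (vertical axis) in each of the 4 A17/+ and 4 WT libraries, with the marker shape giving the library number and black bars the mean and SD. The 4 A17/+ values of Col3a1 lie above the 4 WT values, and the genotypes overlap for the other 9 genes.

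The upstream sequences of the 2 fibrillar genes at the extremes of the fold changes are shown because they carry the contrast within this group, Col3a1 with the largest rise and Col5a1 with the largest negative value. Both are the 250 bases before the start site in RefSeq (GRCm38.p6), read 5′ to 3′ on the gene's own strand. Capitals mark TATAA and GGGCGG, letters of the TATA box and of the GC box, on either strand. Col3a1 lies at chr1:45311288-45311537, plus strand, and Col5a1 at chr2:27886175-27886424, plus strand.
Col3a1: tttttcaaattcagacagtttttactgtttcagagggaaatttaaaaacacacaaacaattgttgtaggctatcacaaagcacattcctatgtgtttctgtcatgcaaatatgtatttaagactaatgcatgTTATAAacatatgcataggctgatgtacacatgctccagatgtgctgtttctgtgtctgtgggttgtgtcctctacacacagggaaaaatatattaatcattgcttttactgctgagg
Col5a1: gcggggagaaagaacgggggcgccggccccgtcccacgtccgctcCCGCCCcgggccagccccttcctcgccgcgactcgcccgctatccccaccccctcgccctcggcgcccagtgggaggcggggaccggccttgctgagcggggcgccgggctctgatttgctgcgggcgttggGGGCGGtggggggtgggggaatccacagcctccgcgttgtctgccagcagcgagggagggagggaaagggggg
These windows differ in base composition, with 35.2% G and C in Col3a1 and 76.4% in Col5a1. Of the 9 chains with a RefSeq window, 1, Col3a1, held TATAA, at overlapping positions on both strands, and 22.8% of 32851 windows of the same length hold it. Col5a1 held GGGCGG at 2 positions, and 32.7% of all windows hold it. CCAAT, letters of the CCAAT box, also searched on both strands, was in neither of the 2 windows and in 33.8% of all windows. The Col5a1 window also lies within the annotated span of 2810430I11Rik on the other strand. A match of letters describes the sequence only.

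Among the fibrillar chains, Col3a1 (ENSMUSG00000026043, chromosome 1, 45311538 to 45349706, plus strand) forms type III collagen by itself. It had 58.0, 130, 98.9 and 105 CPM in A17/+ 1 to 4, and 29.0, 45.2, 33.8 and 54.2 CPM in WT 1 to 4. The lowest A17/+ library lay above the highest WT library, and A17/+ 1 was the A17/+ library nearest to WT. All 4 A17/+ libraries lay above all 4 WT libraries for 8.57% of all tested genes, and below them for 6.08%. The means were 98.1 ± 29.9 CPM in A17/+ and 40.6 ± 11.4 CPM in WT (SD, n = 4 each), from 144 counts in A17/+ and 47 in WT. The log2 fold change was 1.31 with an SE of 0.30, and the 95% interval of the fold ran from 1.59 to 3.88 (edgeR adjusted p = 0.0129). Without WT 3 the adjusted p was 0.0557 with a log2 fold change of 1.23, and without both libraries numbered 1 it was 0.00314 with 1.35. Over the 22 alternative fits the adjusted p ran from 0.000967 to 0.0557 and the log2 fold change from 1.06 to 1.47.

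Col1a1 and Col1a2 encode the chains of type I collagen, the main collagen of tendon and scar. Col1a1 (chromosome 11, 94936224 to 94953042, plus strand) had 64.7, 184, 138 and 82.7 CPM in A17/+ 1 to 4, and 64.6, 107, 91.4 and 114 CPM in WT 1 to 4. A17/+ 2 was highest, A17/+ 1 and WT 1 were nearly equal, and the groups overlapped. Its means were 117 ± 54.2 CPM in A17/+ and 94.1 ± 21.8 CPM in WT (SD, n = 4 each), a log2 fold change of 0.34 (edgeR adjusted p = 0.542) with a fold interval from 0.801 to 1.99. Col1a2 (chromosome 6, 4504814 to 4541544, plus strand) had 46.8, 138, 93.2 and 88.4 CPM in A17/+ 1 to 4, and 73.5, 45.2, 67.7 and 43.3 CPM in WT 1 to 4. A17/+ 1 lay within the WT range, and the other 3 A17/+ libraries lay above all WT libraries. The means of Col1a2 were 91.7 ± 37.5 CPM in A17/+ and 57.5 ± 15.4 CPM in WT (SD, n = 4 each), a log2 fold change of 0.62 (edgeR adjusted p = 0.236, fold interval 0.966 to 2.43). Without both libraries numbered 1 the log2 fold change of Col1a2 was 1.01 and the adjusted p 0.0262.

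Col5a1, a chain of type V collagen, had the most negative fold change of the 10. The gene lies on chromosome 2 (27886425 to 28039514, plus strand), and it overlaps 2 genes on the opposite strand, 2810430I11Rik and Gm13372, from which its reads cannot be told apart if strand was not used in counting. It had 49.0, 90.4, 33.9 and 39.9 CPM in A17/+ 1 to 4, and 57.9, 77.6, 108 and 173 CPM in WT 1 to 4. A17/+ 2 lay above WT 1 and WT 2, and the other 3 A17/+ libraries lay below all WT libraries. The means were 53.3 ± 25.5 CPM in A17/+ and 104 ± 50.5 CPM in WT (SD, n = 4 each). The log2 fold change was −0.89 with an SE of 0.36 and a fold interval from 0.317 to 0.918, and it did not pass the test (edgeR adjusted p = 0.135, unadjusted p = 0.0257). Leaving out A17/+ 2 gave an adjusted p of 0.0309 (log2 fold change −1.25) and leaving out WT 1 gave 0.0297 (−1.16), and it was 0.0349 with no filter on low counts and 0.0253 with sample weights in limma. Over the 22 alternative fits the adjusted p ran from 0.0253 to 0.316, with every log2 fold change below 0. Col5a2, which encodes the partner chain in type V collagen, had 35.0 ± 10.2 CPM in A17/+ and 29.2 ± 10.3 CPM in WT (SD, n = 4 each), a log2 fold change of 0.27 (edgeR adjusted p = 0.685).

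**Figure D2:**
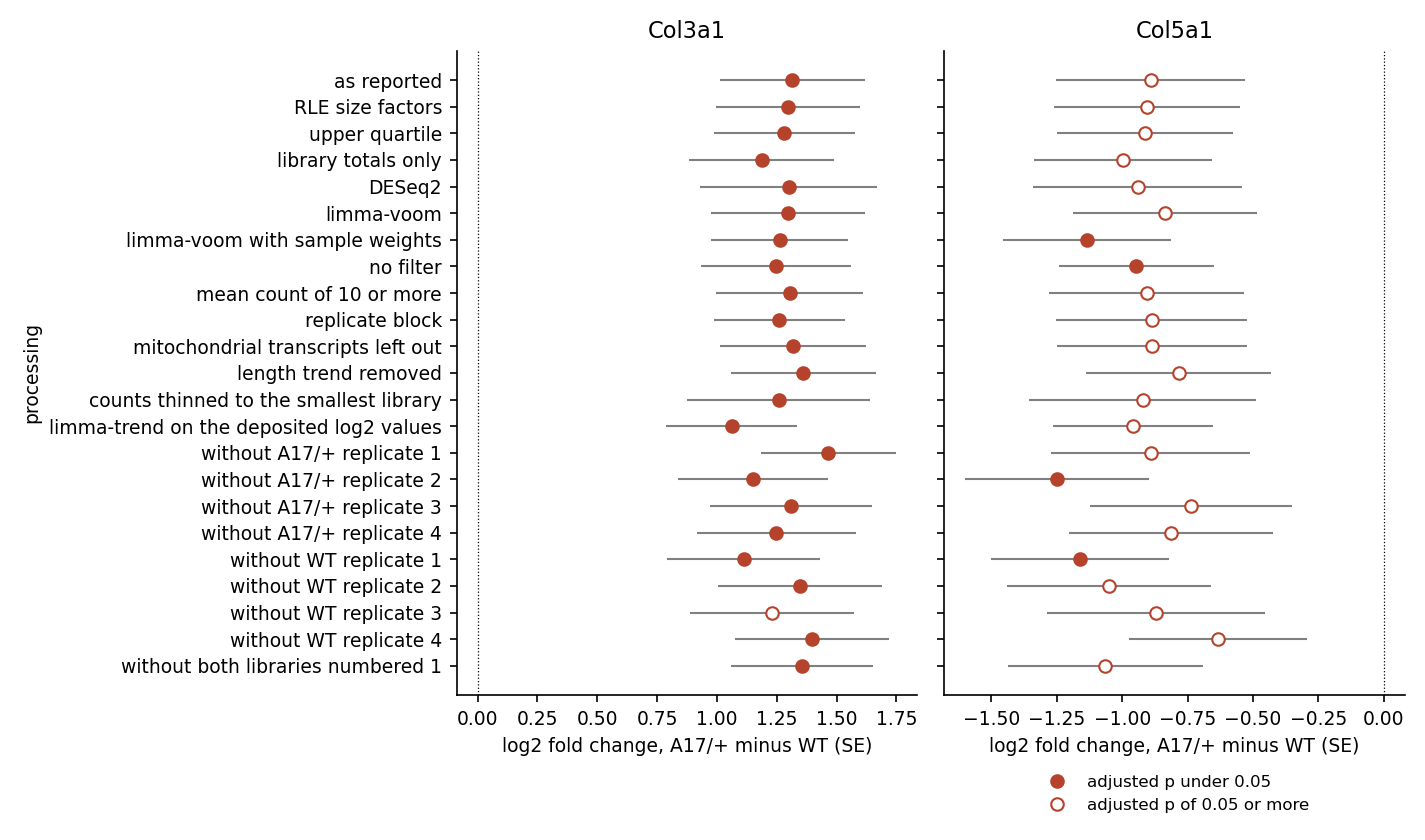
Log2 fold change with its SE (horizontal axis) of Col3a1 and Col5a1 under the reported fit and 22 alternatives (rows), filled where the adjusted p is under 0.05. Col3a1 stays between 1.06 and 1.47 and misses the threshold without WT 3, whereas Col5a1 stays below 0 and passes in 4 of the 22 alternatives.

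Col4a1 and Col4a2 encode the chains of the most widespread type IV collagen, which occur together in one molecule. The genes lie head to head on chromosome 8, Col4a1 on the minus strand (11198423 to 11312826) and Col4a2 on the plus strand (11312805 to 11449287), so that their annotated spans share 22 bases. Col4a1 had 66.9, 98.8, 84.8 and 94.1 CPM in A17/+ 1 to 4, and 33.4, 58.2, 44.0 and 103 CPM in WT 1 to 4. All A17/+ libraries lay above WT 1, 2 and 3, and WT 4 lay above all of them. The means were 86.1 ± 14.1 CPM in A17/+ and 59.6 ± 30.6 CPM in WT (SD, n = 4 each), a log2 fold change of 0.63 (edgeR adjusted p = 0.215, fold interval 0.983 to 2.42). Col4a2 had 46.8, 113, 73.5 and 71.3 CPM in A17/+ 1 to 4, and 69.1, 58.2, 81.2 and 65.0 CPM in WT 1 to 4. The WT values of Col4a2 all lay within the A17/+ range, and its log2 fold change was 0.14 (edgeR adjusted p = 0.811, fold interval 0.731 to 1.65).

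Col6a1, Col6a2 and Col6a3 encode the chains of the main form of type VI collagen, Col6a3 the longest of them. Col6a1 (chromosome 10, 76708792 to 76726168, minus strand) ran from 55.7 to 110 CPM in A17/+ with a median of 92.2, and from 32.3 to 86.7 CPM in WT with a median of 63.4. The log2 fold change of Col6a1 was 0.54 (edgeR adjusted p = 0.280, fold interval 0.938 to 2.24). Col6a2 (chromosome 10, 76595762 to 76623630, minus strand) ran from 44.6 to 102 CPM in A17/+ and from 54.1 to 86.7 CPM in WT, with a log2 fold change of 0.17 (edgeR adjusted p = 0.771, fold interval 0.734 to 1.72). Col6a3 (chromosome 1, 90765923 to 90843971, minus strand) ran from 28.3 to 73.6 CPM in A17/+ and from 33.8 to 80.8 CPM in WT, with a log2 fold change of −0.07 (edgeR adjusted p = 0.923, fold interval 0.589 to 1.55). The genotypes overlapped for all 3 chains, and none passed in any of the 22 alternative fits.

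Col15a1 (chromosome 4, 47208161 to 47313167, plus strand), whose product helps to anchor basement membranes in muscle and capillaries, lay below the filter. It had 7, 13, 4 and 14 counts in A17/+ 1 to 4, and 8, 4, 4 and 6 counts in WT 1 to 4. That is 25.9 ± 14.5 CPM in A17/+ and 19.2 ± 9.14 CPM in WT (SD, n = 4 each). The fit without a filter gave a log2 fold change of 0.43 with a fold interval from 0.712 to 2.54 and an unadjusted p of 0.362, so that no difference was detectable at this depth.

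**Figure D3:**
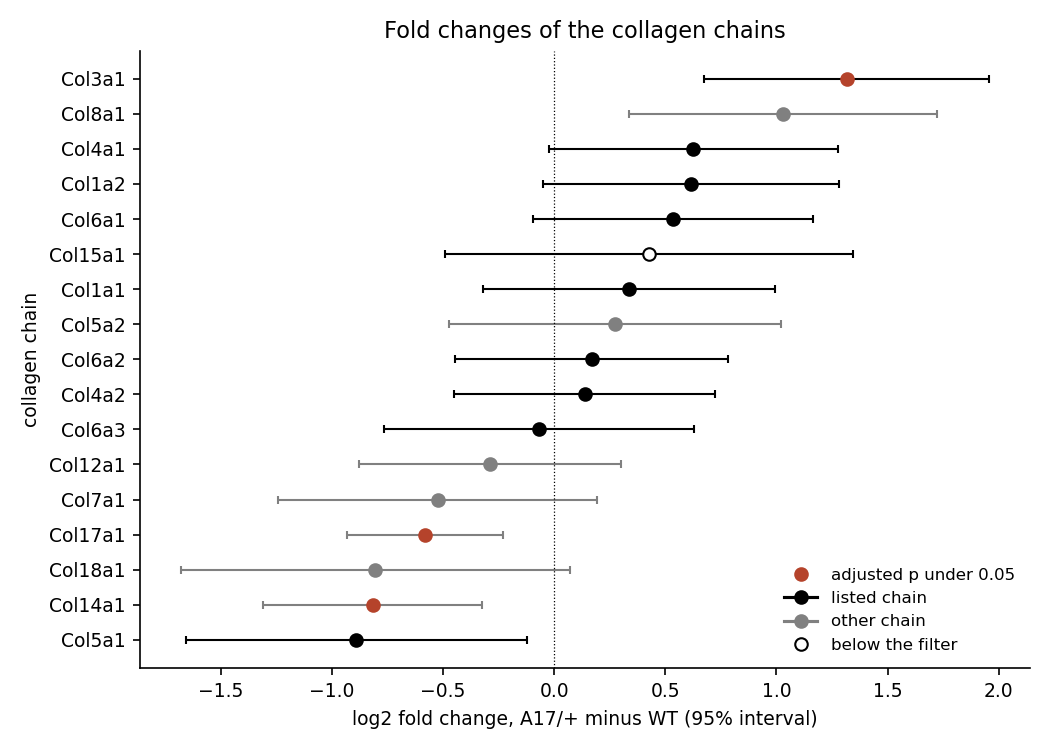
Log2 fold changes of A17/+ minus WT (horizontal axis) with 95% intervals for the 10 listed chains (black lines) and the 7 other collagen chains that passed the filter (grey lines), with red points at an adjusted p under 0.05 and an open point for Col15a1, which lay below the filter. Col3a1 is highest at 1.31 and Col5a1 lowest at −0.89.

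The summed levels of the classes differed between genotypes by less than the larger of the 2 SDs. Fibrillar chains summed to 360 ± 136 CPM in A17/+ and 296 ± 66.8 CPM in WT, type IV chains to 162 ± 40.2 CPM in A17/+ and 128 ± 28.2 CPM in WT, and type VI chains to 210 ± 36.2 CPM in A17/+ and 181 ± 38.6 CPM in WT (SD, n = 4 each). The ratios of means were 1.22, 1.27 and 1.16. The split of the collagen counts between the classes was close in both genotypes. Fibrillar chains held 46.7% ± 4.77 of them in A17/+ and 47.4% ± 2.89 in WT, type IV 21.6% ± 1.04 in A17/+ and 20.5% ± 0.482 in WT, and type VI 28.4% ± 3.64 in A17/+ and 29.2% ± 2.82 in WT (SD, n = 4 each). No test was run on these sums, because the members were chosen with earlier results known.

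Of the 5 pairs of chains compared, Col3a1 over Col1a1 was the one whose values did not overlap between genotypes. The ratio of Col3a1 to Col1a1 counts was 0.897, 0.708, 0.714 and 1.28 in A17/+ 1 to 4, and 0.448, 0.424, 0.370 and 0.476 in WT 1 to 4. All A17/+ libraries lay above all WT libraries, and the WT values were close together. On the log2 scale, with 0.5 added to each count, the ratio averaged −0.20 ± 0.39 in A17/+ and −1.19 ± 0.15 in WT (SD, n = 4 each), a difference of 0.99. A two-sided exact permutation test, with 70 ways to assign the libraries, gave p = 0.0286, the smallest it can give, and 0.143 after adjustment over the 5 pairs of chains compared, where a single pair cannot reach 0.05. A ratio within a library does not depend on how libraries are scaled, and the difference stayed between 0.81 and 1.09 when any 1 library or both libraries numbered 1 were left out. The same did not hold for the other chain of type I collagen, a ratio added after the data were seen. Col3a1 over Col1a2 was 1.24, 0.939, 1.06 and 1.19 in A17/+ 1 to 4, and 0.394, 1.0, 0.5 and 1.25 in WT 1 to 4, so that the genotypes overlapped and WT 4 was highest. The log2 difference of that ratio was 0.63 (exact permutation p = 0.257, and 0.371 adjusted over 6 pairs).

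The other 4 chain ratios overlapped between genotypes. Col1a1 over Col1a2 ran from 0.935 to 1.48 in A17/+ and from 0.879 to 2.62 in WT (log2 difference −0.36, exact permutation p = 0.371). Col4a1 over Col4a2 ran from 0.875 to 1.43 in A17/+ and from 0.484 to 1.58 in WT (0.54, exact permutation p = 0.286). Col6a1 over Col6a2 ran from 0.944 to 1.86 in A17/+ and from 0.588 to 1.19 in WT (0.44, exact permutation p = 0.229). Col6a3 over Col6a1 ran from 0.256 to 1.32 in A17/+ and from 0.526 to 2.50 in WT (−0.66, exact permutation p = 0.371). Each of these 4 had an adjusted p of 0.371, and the partner chains of type I, IV and VI collagen were therefore not shown to change against each other at this depth.

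**Figure D4:**
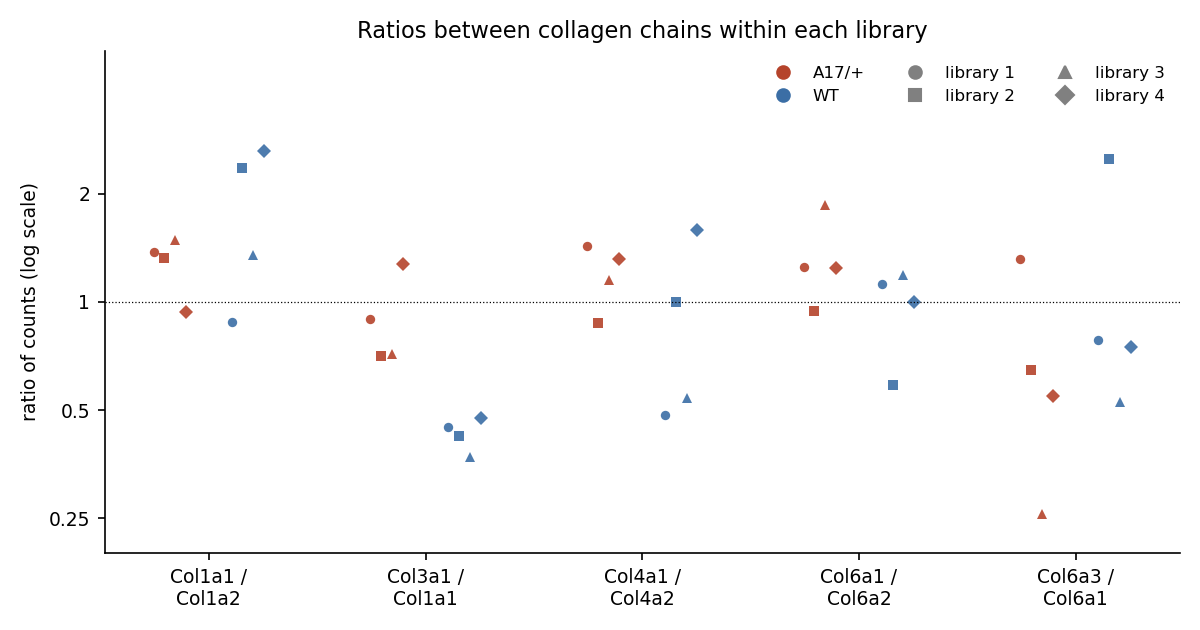
Ratio of the counts of 2 collagen chains within each library (vertical log axis) for 5 pairs, with A17/+ in red, WT in blue and the marker shape giving the library number. For Col3a1 over Col1a1 the A17/+ values, 0.708 to 1.28, lie above the WT values, 0.370 to 0.476, and the genotypes overlap for the other 4 pairs.

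Levels of different chains are listed here after division by transcript length, in CPM per kb. Tags at the 3′ end count molecules and need not scale with length, so these are not orders of transcript number. Without the division Col1a1 (117 CPM) was highest in A17/+ and Col5a1 (104 CPM) was highest in WT. In A17/+ the highest was Col6a1 (21.4 ± 5.63), followed by Col1a1 (19.8 ± 9.14), Col3a1 (17.6 ± 5.37), Col1a2 (17.1 ± 7.0), Col6a2 (14.1 ± 4.93), Col4a1 (13.0 ± 2.13), Col4a2 (11.8 ± 4.24), Col5a1 (6.34 ± 3.03), Col6a3 (5.25 ± 1.93) and Col15a1 (5.0 ± 2.81; CPM per kb, SD, n = 4 each). In WT the order was Col1a1 (15.9 ± 3.67), Col6a1 (15.0 ± 5.44), Col6a2 (12.8 ± 3.23), Col5a1 (12.4 ± 6.01), Col1a2 (10.7 ± 2.88), Col4a2 (10.6 ± 1.5), Col4a1 (9.02 ± 4.63), Col3a1 (7.29 ± 2.04), Col6a3 (5.66 ± 2.0) and Col15a1 (3.71 ± 1.77). Neighbours in either order differed by less than the larger of their SDs, save Col4a2 and Col5a1 in A17/+. Col3a1 ranked above Col1a2 in A17/+ and below it in WT, and Col5a1 ranked below Col4a1 and Col4a2 in A17/+ and above both in WT. These shifts were the same in mean CPM without the division.

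Among the 29 other collagen chains, 7 passed the filter and 2 of these fell. For comparison, 2.61% of all tested genes were lower, and 3.08% of those with a transcript of at least 4000 nt. Col14a1, a collagen that binds to the surface of fibrils, had 93.6, 144, 98.9 and 79.8 CPM in A17/+ 1 to 4, and 169, 175, 159 and 238 CPM in WT 1 to 4, a log2 fold change of −0.82 (edgeR adjusted p = 0.0371). Col17a1, a membrane-spanning collagen of the hemidesmosomes of epithelial cells, had 261, 291, 248.6 and 262 CPM in A17/+ 1 to 4, and 365, 456, 440 and 325 CPM in WT 1 to 4, a log2 fold change of −0.58 (edgeR adjusted p = 0.0377). For both genes all A17/+ libraries lay below all WT libraries, as for 6.08% of all tested genes. With 1 library left out, the adjusted p of Col14a1 was above 0.05 in 5 cases, at 0.115 (A17/+ 3), 0.111 (A17/+ 4), 0.0535 (WT 2), 0.0601 (WT 3) and 0.0766 (WT 4). That of Col17a1 was above 0.05 in 4 cases, at 0.124 (A17/+ 3), 0.0910 (A17/+ 4), 0.0913 (WT 2) and 0.107 (WT 3). Both calls also ended when the length trend was removed, with 0.0522 for Col14a1 and 0.0515 for Col17a1, and with counts thinned to the smallest library, with 0.0791 for Col14a1 and 0.0734 for Col17a1. Limma-voom gave Col17a1 0.0555.

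Col8a1, a short-chain collagen found around vessels, had 44.6, 53.7, 50.9 and 65.6 CPM in A17/+ 1 to 4, and 35.7, 29.1, 20.3 and 10.8 CPM in WT 1 to 4. All A17/+ libraries lay above all WT libraries, as for 8.57% of all tested genes. Its log2 fold change of 1.03 did not pass (edgeR adjusted p = 0.0586). Without WT 1 its adjusted p was 0.0294, and without both libraries numbered 1 it was 0.0167. Col18a1, the relative of Col15a1 in basement membranes, had 37.4 ± 22.4 CPM in A17/+ and 64.7 ± 29.0 CPM in WT (SD, n = 4 each; log2 fold change −0.80, edgeR adjusted p = 0.240). Col7a1, of the anchoring fibrils under epithelia, had a log2 fold change of −0.52 and Col12a1, a fibril-associated collagen, had −0.29 (edgeR adjusted p = 0.358 and 0.564). The 22 chains below the filter had at most 40 counts over all 8 libraries.

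The tested genes listed for making, trimming and binding collagen did not follow a single direction. Beside these list counts and those of the cell markers below, 6.34% of all tested genes were higher and 2.61% lower by edgeR. An unadjusted p under 0.05 was found for 1273 of the 5066 tested genes. Of 9 tested genes of collagen synthesis and folding, which modify and fold the chains in the endoplasmic reticulum, 0 were higher and 0 lower by edgeR and likewise by DESeq2, 2 had an unadjusted p under 0.05, and the median log2 fold change was 0.03. P3h2, a prolyl hydroxylase, had −0.67 and Sec23a, of the vesicle coat that carries collagen out of the reticulum, had 0.90 (edgeR adjusted p = 0.113 and 0.192). Leaving out WT 1 gave P3h2 −0.86 with an adjusted p of 0.0345, and leaving out both libraries numbered 1 gave −0.94 with 0.0225.

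Of 20 genes listed for collagen trimming and cross-linking 6 passed the filter, Sparc, Mfap4, Tnxb, Fn1, Fmod and Postn. These are matrix proteins, so the values do not cover the enzymes that trim or cross-link collagen. Of the 6 tested genes 2 rose and 0 fell by edgeR, with a median of 0.47 and 4 members at an unadjusted p under 0.05. The count of lower members was 1 by DESeq2 and 1 or 2 in 12 of the 22 alternative fits. The count of higher members ran from 0 (thinned counts, where neither Sparc nor Mfap4 was tested) to 3. The other 2 members with such a p, named after their values were seen, had negative values and are long matrix proteins. Tnxb, a tenascin, had 288 ± 76.7 CPM in A17/+ and 557 ± 203 CPM in WT (SD, n = 4 each; log2 fold change −0.94, edgeR adjusted p = 0.0553). Fn1, fibronectin, had 1374 ± 168 CPM in A17/+ and 1996 ± 496 CPM in WT (SD, n = 4 each; log2 fold change −0.54, edgeR adjusted p = 0.0697). The whole list summed to 2207 ± 327 CPM in A17/+ and 2848 ± 678 CPM in WT. Sparc, a matrix protein that binds collagen, had 58.0, 181, 138 and 120 CPM in A17/+ 1 to 4, and 26.7, 45.2, 60.9 and 32.5 CPM in WT 1 to 4. A17/+ 1 lay just below WT 3, and the other A17/+ libraries lay above all WT libraries. The log2 fold change of Sparc was 1.58 with an SE of 0.35 (edgeR adjusted p = 0.0108), and it passed in all 21 alternative fits that tested it. Mfap4, a microfibril protein that binds collagen and elastin, had 38.3 ± 9.35 CPM in A17/+ and 12.1 ± 7.15 CPM in WT (SD, n = 4 each), a log2 fold change of 1.71 (edgeR adjusted p = 0.0175). In WT 1 to 4 it had 13.4, 6.46, 6.77 and 21.7 CPM, near the floor, where 1 count was worth 2.23 to 5.42 CPM. Mfap4 passed the filter only through the A17/+ libraries, where it was high. Its adjusted p was 0.0614 without A17/+ 4, 0.0662 without WT 2, 0.0749 without WT 3 and 0.0525 with limma-voom.

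Of 8 tested genes of collagen breakdown 1 rose and 0 fell, with a median of 0.55 and 4 at an unadjusted p under 0.05. In 3 of the 8 all A17/+ libraries lay above all WT libraries, and in 1 all lay below. Over all tested genes the shares were 8.57% above and 6.08% below. Ctsb, the lysosomal protease cathepsin B, had 60.2, 147, 164 and 134 CPM in A17/+ 1 to 4, and 55.7, 29.1, 47.4 and 48.8 CPM in WT 1 to 4. All A17/+ libraries lay above all WT libraries, with A17/+ 1 close to WT 1, and the log2 fold change was 1.45 (edgeR adjusted p = 0.0102). Ctsb passed in all 21 alternative fits that tested it. Of 11 tested collagen receptors 0 rose and 1 fell, with a median of 0.05 and 3 at an unadjusted p under 0.05. Cd44, better known as a receptor for hyaluronan, had 349 ± 55.1 CPM in A17/+ and 601 ± 130 CPM in WT (SD, n = 4 each), a log2 fold change of −0.78 (edgeR adjusted p = 0.0151). The adjusted p of Cd44 was 0.0596 without A17/+ 3, 0.0538 without A17/+ 4 and 0.0558 without WT 3.

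Of 12 tested partners of type IV collagen in the basement membrane 0 rose and 1 fell. Their median was −0.01, and 2 had an unadjusted p under 0.05. Lama3, a laminin chain of epithelial basement membranes, had 124 ± 15.0 CPM in A17/+ and 225 ± 42.7 CPM in WT (SD, n = 4 each), a log2 fold change of −0.84 (edgeR adjusted p = 0.0174). Its adjusted p was 0.0571 without A17/+ 4 and 0.0545 without WT 2. Of 10 tested genes of the TGF-beta pathway, which drives collagen transcription in fibroblasts, 0 were higher and 0 lower by edgeR and likewise by DESeq2, 1 had an unadjusted p under 0.05, and the median was −0.16. Tgfbi, a matrix protein induced by TGF-beta, had −0.53 and Ski, a repressor of the pathway, had 0.66 (edgeR adjusted p = 0.110 and 0.222). Leaving out WT 1 gave Tgfbi −0.75 with an adjusted p of 0.00717, and leaving out both libraries numbered 1 gave −0.66 with 0.0126.

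**Figure D5:**
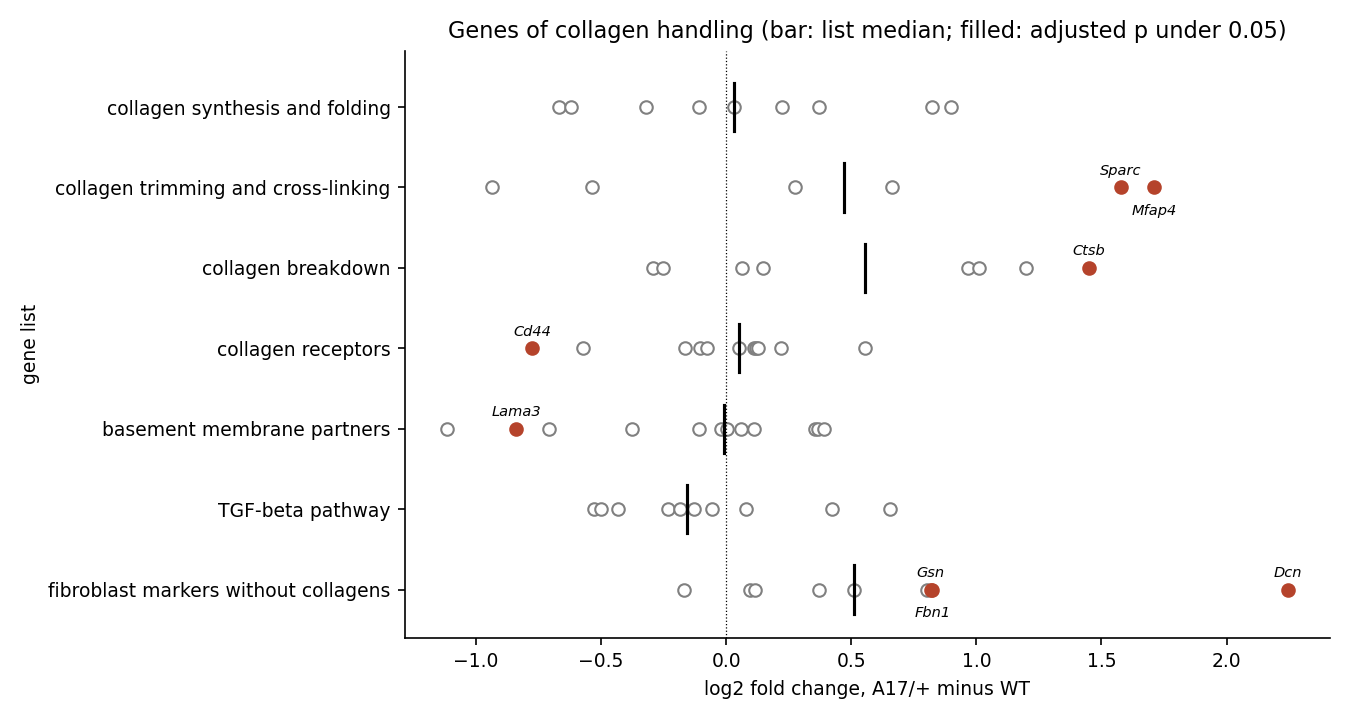
Log2 fold change of A17/+ minus WT (horizontal axis) for the tested genes of 6 lists of collagen handling and of fibroblast markers (rows), with a vertical bar at each list's median and filled points at an adjusted p under 0.05. Sparc (1.58), Mfap4 (1.71) and Ctsb (1.45) lie to the right and Cd44 (−0.78) and Lama3 (−0.84) to the left.

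Markers of the cells that make collagen also moved, and their part in these results was not tested. Of 9 tested fibroblast markers other than collagens 3 rose and 0 fell, with a median of 0.51, and the list summed to 2127 to 3455 CPM in A17/+ and to 1981 to 2151 CPM in WT, with no marker at 0. Dcn, the proteoglycan decorin that coats collagen fibrils, had 123, 497, 404 and 519 CPM in A17/+ 1 to 4, and 111, 80.8, 44.0 and 81.3 CPM in WT 1 to 4. A17/+ 1 lay just above WT 1, and the log2 fold change was 2.24 (edgeR adjusted p = 0.0123, with 0.0519 without WT 4 and 0.103 with limma-voom). Gsn (0.82) and Fbn1 (0.82), the actin-severing gelsolin and fibrillin, were the others (edgeR adjusted p = 0.0167 and 0.0340). Limma-voom gave an adjusted p of 0.0515 for Gsn and 0.0544 for Fbn1, so that none of the 3 passed with it. Left-out libraries raised the adjusted p of Gsn above 0.05 for A17/+ 3 (0.0652), A17/+ 4 (0.0806), WT 2 (0.0570), WT 3 (0.0745) or WT 4 (0.0595). For Fbn1 this was so for A17/+ 2 (0.0682), A17/+ 3 (0.0518), A17/+ 4 (0.0566), WT 2 (0.114), WT 3 (0.0798) or WT 4 (0.0699).

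Other cell types that make type IV and other collagens gave the following levels. Endothelial markers summed to 765 to 818 CPM in A17/+ and to 679 to 729 CPM in WT, with 0 of 9 tested members higher or lower by edgeR and 0 at an unadjusted p under 0.05. Smooth muscle and pericyte markers summed to 2198 to 2896 CPM in A17/+ and to 1610 to 2111 CPM in WT, with 2 of 7 tested members higher, Des (1.31, edgeR adjusted p = 0.00796), the desmin that muscle fibres also make, and Acta2 (1.13, edgeR adjusted p = 0.0169), smooth muscle actin. Acta2 had an adjusted p above 0.05 when A17/+ 3 (0.0600), A17/+ 4 (0.0767), WT 2 (0.0662) or WT 3 (0.0759) was left out, and of 0.0515, with a log2 fold change of 0.92, when the length trend was removed. Of 10 Schwann cell markers 3 were tested. By edgeR 1 was higher, Pmp22 of myelin (1.74), and 0 lower, with a median of 0.81. Pmp22 had 22.3, 12.9, 13.5 and 32.5 CPM in WT 1 to 4, near the floor. All 3 tested members had an unadjusted p under 0.05 by edgeR, and they moved in both directions. In 2 of them all A17/+ libraries lay above all WT libraries, and in 1 all lay below. Over all tested genes the shares were 8.57% above and 6.08% below. The Schwann cell list summed to 240 to 294 CPM in A17/+ and 142 to 196 CPM in WT. Of 10 adipocyte markers only 3 were tested, and all 3 were higher, the lipid carrier Fabp4 (2.68), the lipase Lpl (1.17) and the droplet protein Plin4 (1.18). Fabp4 had 13.4, 9.70, 13.5 and 21.7 CPM in WT 1 to 4, near the floor, and passed the filter only through the A17/+ libraries. The adipocyte list summed to 684 to 716 CPM in A17/+ and 190 to 372 CPM in WT, and Lep had no entry among the deposited genes. Plin4 had an adjusted p above 0.05 when A17/+ 3 (0.0593) or WT 3 (0.0566) was left out. Tendon markers summed to 116 to 257 CPM in A17/+ and to 90.5 to 135 CPM in WT, and macrophage markers to 410 to 493 CPM in A17/+ and 139 to 406 CPM in WT. Of 6 tendon markers only 1 was tested, Thbs4 (0.59, edgeR adjusted p = 0.161). Of 10 macrophage markers 3 were tested, all 3 above 0, with a median of 0.70. By edgeR 0 tested members were called in either list, and 1 in each had an unadjusted p under 0.05. The macrophage gene Lyz2 had 0.93 (edgeR adjusted p = 0.153), and 1.66 with an adjusted p of 0.000867 when WT 1 was left out, or 1.72 with 4.87e-05 when both libraries numbered 1 were. Satellite cell markers summed to 39.5 to 54.2 CPM in A17/+ and to 31.2 to 54.2 CPM in WT, with none tested and no entry for Calcr. Salivary gland markers summed to 14.1 to 57.0 CPM in A17/+, and to 0 to 2057 CPM in WT, where WT 1 held the highest sum. Muc19, Prol1, Smgc and Bhlha15 had no entry under these symbols among the deposited genes.

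Tongue epithelium markers had 0 of 14 tested members higher and 4 lower, Dsp, Perp, Krt76 and Dsg3, with log2 fold changes from −0.85 to −0.69. The median over the 14 was −0.14, and 5 of them had a log2 fold change above 0. Dsp, the desmosomal linker desmoplakin, had the smallest p (−0.85, edgeR adjusted p = 0.00553). Dsg3 (edgeR adjusted p = 0.0423) missed the threshold, at 0.0681 to 0.140, when any 1 of A17/+ 2, 3 and 4 and WT 2, 3 and 4 was left out, and also with DESeq2 (0.0585), with no filter (0.0594) and with the length trend removed (0.0577). The epithelial collagen Col17a1 and the epithelial laminin chain Lama3 fell beside these 4 markers. The part of the amount of epithelium in these values was not tested.

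The 5 genes whose centred log2 CPM lay nearest to the mean profile of the 9 tested chains over the 8 libraries were Gnai2, Stat3, Tcf25, Ppp6r1 and Zswim8, at root mean square distances from 0.118 to 0.152. The chains themselves lay at 0.125 (Col6a2) to 0.664 (Col5a1) from that mean, with Col3a1 at 0.478. Of the chains, Col6a2 followed the mean of all 9 most closely, and Col3a1 and Col5a1 departed from it in opposite directions between genotypes.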

How the data were processed

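Total RNA from 40 cryosections of the middle of each tongue was turned into libraries with mcSCRB-seq, a method that tags molecules at the 3′ end with a unique molecular identifier, per the labels' protocols. The submitters' processing notes name cutadapt 2.10, STAR 2.7.5a, UMI-tools 1.1.1, HTSeq and the build mm10, and the strand setting of the counting is not given in the sources used here. The authors deposited whole-number counts per Ensembl gene for 8 libraries, and a table of log2 values, used for 1 alternative. Symbols, coordinates and transcript lengths came from GENCODE for the same build, and 19677 of 19857 IDs matched.

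Genes were kept by filterByExpr with a minimum count of 10 and a minimum total of 15 (5066 genes). The count of 10 is applied as the CPM it makes in a library of median size, to be reached in enough libraries. Genotypes were compared with the quasi-likelihood test of edgeR 4.0.16 in R 4.3.3 on TMM-scaled counts, adjusted by Benjamini-Hochberg over all genes, with a threshold of 0.05. Alternatives used limma 3.58.1 and DESeq2 1.42.0, and the edgeR step was tested on simulated data. No pair of libraries agreed within counting error. SEs were derived from the F statistic. The members and lists were chosen with earlier results of these data known. Named genes were the 10 chains, the other chains past the filter, up to 4 called genes per list with the smallest p (or 2 where none was called) and the 5 nearest profiles. Counting error alone is not the error of a group mean, and p-values rest on 4 mice per genotype.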

Additional observations from a re-analysis of the deposited data

Results flagged for a closer look

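Col6a2 in WT 4, at 86.7 CPM, lay far from the other 3 WT libraries, which held 54.1 to 55.7 CPM, with a gap of 0.952 of the group's whole range. It was 1 of 36 groups checked, of which chance alone would mark about 1 in 20. WT 4 is also the library with the fewest counts, 205696, where 1 count is worth 5.42 CPM, and the part of depth in this value was not tested.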

How the results depend on the processing

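The rise of Col3a1 passed in 21 of 22 alternative fits. Over all genes, 321 were higher and 132 lower in A17/+. Those higher were 145 with limma-voom, 615 with no filter, 538 with limma-trend on the deposited log2 values, 695 without both libraries numbered 1 and 172 to 586 without any 1 library. Those lower were 289 with library totals only, 83 with limma-voom, 374 with sample weights, 238 with no filter, 82 with counts thinned to the smallest library, 259 with limma-trend, 330 without both libraries numbered 1 and 38 to 383 without any 1 library. Library totals moved the median of all genes to −0.11 and gave 279 higher. Of the 10 chains, 2 were higher without both libraries numbered 1, and 0 to 1 without any 1 library. Those lower were 1 with sample weights, 1 with no filter, and 0 to 1 without any 1 library. Some small log2 fold changes turned sign. Without any 1 library Col4a2 ran from −0.116 to 0.272, Col6a2 from −0.0739 to 0.295, Col6a3 from −0.330 to 0.135, Ppp6r1 from −0.0304 to 0.354 and Zswim8 from −0.0276 to 0.393. Those of Col4a2, Col6a2, Ppp6r1 and Zswim8 were below 0 without A17/+ 2, and that of Col6a3 was above 0 without A17/+ 3 and without WT 2. Col6a3 was also 0.0422 with the length trend removed and 0.0419 with thinned counts. The causes were not tested. Over the 22 fits the counts of called members ran from 0 to 4 higher for collagen breakdown (3 without both libraries numbered 1), from 0 to 2 lower for receptors and for basement membrane partners (2 each without both), and from 0 to 1 lower for synthesis and for the TGF-beta pathway (1 each without both). For trimming and cross-linking they ran from 0 to 3 higher and 0 to 2 lower (1 and 2 without both). The 0 higher for breakdown and for trimming came with thinned counts, where Ctsb, Sparc and Mfap4 were not tested. Same-numbered libraries shared only a number: their deviations correlated at 0.00406, 0.0719, −0.104 and −0.159, and no library matched its own number best. With the replicate block, 311 genes were higher and 99 lower, Col3a1 had 1.26 (edgeR adjusted p = 0.0113), and Col14a1 (0.0622), Col17a1 (0.0775), Fbn1 (0.0685) and Dsg3 (0.0793) missed the threshold, while Lyz2 (0.0481) passed. For Col3a1 over Col1a1, permutation within numbers gave an adjusted exact p of 0.312. That test has too few assignments to reach 0.05 whatever the data. With Col1a2 in place of Col1a1 the log2 difference was 0.63. Of 24 called genes named here, 11 passed in every alternative that tested them and 13 missed in at least 1. Low counts limit the chains with 152 to 372 counts per library in all.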
